A study of Rattus norvegicus with 18 samples.

Results

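Synaptic vesicle exocytosis genes were taken as the rat genes whose symbol is that of a synapsin (Syn), an SV2 protein (Sv2), a numbered synaptotagmin (Syt), complexin (Cplx) or syntaxin (Stx), or a numbered Snap or Vamp gene. The rule covers 55 symbols of the rat gene table. Of these, 52 had a probe on the array (72 probes), out of 16665 genes with a named probe, and 48 had at least 1 probe bright enough to be tested, out of 13055 genes tested. Hypothalamic RNA of 18 male Wistar rats aged 9 weeks was hybridised to 1-colour Agilent arrays, with 1 array per rat. Rats with stress and exercise (n = 6) could run in a wheel over 4 weeks, and in the last 3 of these they were also restrained for 1 to 1.5 h on 5 days of the week. Stress rats (n = 6) had that restraint and no wheel. Control rats (n = 6) had neither. By its title, the series concerns the effect of exercise in hypertension induced by chronic stress.

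A nerve terminal releases transmitter when a vesicle SNARE protein zips together with SNARE proteins of the plasma membrane and the 2 membranes fuse. Synaptotagmins sense the calcium that triggers the fusion, complexins bind the assembled SNARE complex, synapsins tether vesicles in a reserve pool, and SV2 proteins are glycoproteins of the vesicle membrane. In the hypothalamus the same machinery serves fast transmission and, with partly other family members, the release of peptides from dense core vesicles. Many syntaxins, Snap and Vamp proteins act elsewhere in the cell, on the endoplasmic reticulum, the Golgi, endosomes, autophagosomes or the plasma membrane outside synapses, and the rule takes them in.

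On each array, 63.6% to 77.8% of the 45598 probes stood well above background, and no spot was saturated. A level is the log2 intensity of a gene's brightest tested probe relative to the 75th percentile of its array, so that levels of different genes cannot be set against each other. Of 12 hypothalamic neuron markers, 11 were measured, and their summed intensity relative to that percentile ran from 503 to 597 in rats with stress and exercise, from 478 to 610 in stress rats and from 473 to 546 in control rats. The arrays lay on 5 slides, per the file headers. Slides 4 and 5 held all rats with stress and exercise together with stress rats 5 and 6, whereas slides 1 to 3 held stress rats 1 to 4 and all control rats. These 2 slide sets separated on the first principal component (31.8% of the variance), with scores from -39.2 to -25.7 for slides 4 and 5 and from 20.7 to 32.0 for slides 1 to 3. No slide set held both rats with stress and exercise and control rats, and no slide held both stress and control rats. The stress group, which spans both sets, gave a measure of the slide-set difference in rats of 1 treatment. In bulk tissue, fewer cells of a type and less RNA per cell cannot be told apart.

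By subfamily, all 3 synapsins, all 3 SV2 genes, 15 of 16 synaptotagmins with a probe, 2 of 4 complexins, 13 of 14 syntaxins, all 5 Snap genes and all 7 Vamp genes were tested. Cplx3, Cplx4, Stx11 and Syt15 had a probe that was too dim to be tested: Cplx3 was well above background on 1 array of stress with exercise, 3 stress arrays and 2 control arrays, and the other 3 on at most 1 array of any group. Stx16, Syt14 and Vamp9 had no probe matched. A tested gene passed through any 1 group, yet all 48 were well above background on every array, except Syn3, which was so on 5 of 6 stress arrays. Snap91 falls under the rule by its symbol and encodes AP180, an adaptor of clathrin coats rather than a SNARE.

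In the main comparison, rats with stress and exercise against control rats, 16 of the 48 members passed an adjusted p of 0.05 in limma, 11 higher and 5 lower. Among all 13055 genes 28.0% passed (18.1% higher and 9.84% lower), so the members' count lay near that of the array as a whole. The members' median log2 difference was 0.067, beside 0.051 for all genes. By the brightest probe of each gene, higher were Cplx1, Cplx2, Sv2a, Syn1, Syt3, Syt5, Syt12, Snap29, Stx5, Stx8 and Stx12, and lower were Stx4, Stx18, Stx19, Syt8 and Syt16. Apart from Stx4, no called member differed by more than 0.634 on the log2 scale. In 9 members the arrays of rats with stress and exercise did not overlap those of control rats, against 18.6% of all genes. At an unadjusted p under 0.05 stood 21 members, beside 40.0% of all genes. The counts moved with the fit. With scan day as a block 17 members passed, beside 34.0% of all genes. With no scaling of the arrays 6 passed, 2 higher and 4 lower, beside 3.10% of all genes higher and 9.85% lower. With slide as a random block 2 passed, Stx4 and Stx19, beside 4.23% of all genes. In the fit with a slide-set term 0 passed.

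**Figure D1:**
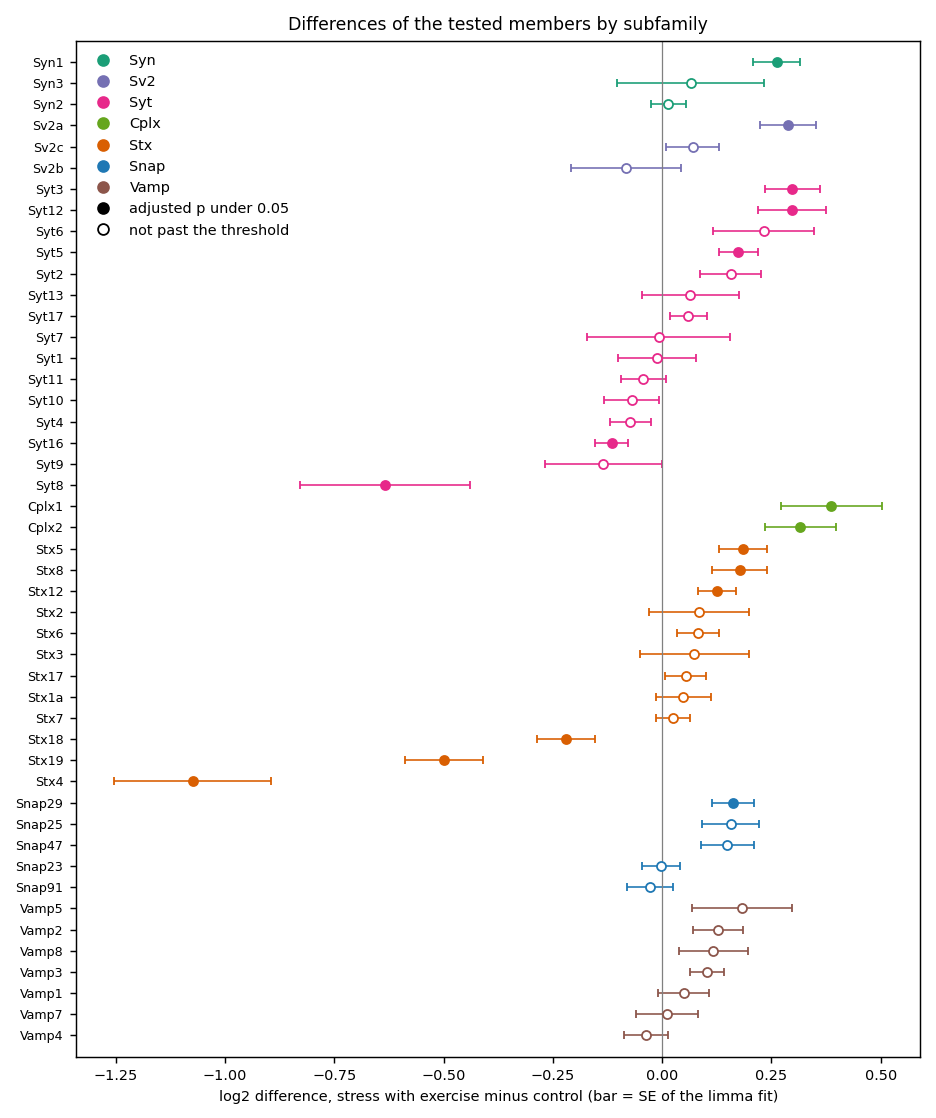
Log2 difference between rats with stress and exercise and control rats for 47 of the 48 tested members, grouped by subfamily and sorted within it (points, estimate of the limma fit; bars, its SE; 6 arrays in each group). Filled points passed an adjusted p of 0.05 over all tested probes. Both complexins are filled on the higher side, Stx4 lies lowest at -1.07, and no Vamp gene is filled.

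The SNARE proteins that form the fusion complex at most central synapses were not among the members called with group as the only term. Vamp2, the vesicle SNARE synaptobrevin, had levels of 7.14 (lowest), 7.28 (median) and 7.31 (highest) in rats with stress and exercise, 7.04, 7.13 and 7.28 in stress rats, and 6.94, 7.19 and 7.23 in control rats. The difference against control rats was 0.13 ± 0.06 (SE), with an adjusted p of 0.114. Vamp2 passed with median centring (0.22, adjusted p = 0.0185), and with the slide set it had an adjusted p of 0.928. Snap25, a plasma membrane SNARE, had 4.50, 4.60 and 4.72 in rats with stress and exercise, 4.18, 4.48 and 4.63 in stress rats, and 4.38, 4.46 and 4.53 in control rats. The groups overlapped for both genes, and for both all 6 arrays of stress with exercise lay above the control mean. For Snap25 the difference against control rats was 0.16 ± 0.06 (adjusted p = 0.0812). Snap25 passed with median centring (adjusted p = 0.031), the scan day block (0.0466), the 2 groups alone (0.0216) and scan day 1 alone (0.019). It also passed without stress rat 2 (0.0289), and with the slide set it had an adjusted p of 0.949.

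Stx1a, a plasma membrane syntaxin of the same complex, had levels of 3.34, 3.55 and 3.71 in rats with stress and exercise, 3.34, 3.37 and 3.56 in stress rats, and 3.36, 3.51 and 3.62 in control rats. All 3 groups overlapped, and the difference against control rats was 0.05 ± 0.06 (adjusted p = 0.617). Syt1, the calcium sensor of fast release, had 0.89, 1.17 and 1.34 in rats with stress and exercise, 0.92, 1.02 and 1.15 in stress rats, and 0.92, 1.07 and 1.39 in control rats. Its difference against control rats was -0.01 ± 0.09 (adjusted p = 0.944), smaller than the spread within either group (SD 0.18 with stress and exercise, 0.19 in control). A p that misses the threshold does not show that the levels were equal.

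Both tested complexins were higher in rats with stress and exercise than in control rats. Cplx1 had levels of 1.75, 2.15 and 2.31 in rats with stress and exercise, 1.33, 1.91 and 2.07 in stress rats, and 1.55, 1.74 and 1.85 in control rats. The lowest rat with stress and exercise lay within the control range, and the others lay above it. The difference against control rats was 0.39 ± 0.12, or 1.31-fold, with an adjusted p of 0.0206. Cplx2 had 3.02, 3.22 and 3.28 in rats with stress and exercise, 2.68, 3.01 and 3.19 in stress rats, and 2.75, 2.87 and 3.11 in control rats. Only the lowest array of stress with exercise fell below the highest control array, and the difference was 0.32 ± 0.08, or 1.24-fold (adjusted p = 0.00909).

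Of the synapsins, Syn1 was higher, while Syn2 (0.01, adjusted p = 0.838) and Syn3 (0.06, adjusted p = 0.816) did not pass. Syn1 had levels of 2.39, 2.42 and 2.48 in rats with stress and exercise, 2.15, 2.18 and 2.44 in stress rats, and 2.01, 2.19 and 2.24 in control rats. Rats with stress and exercise and control rats did not overlap, and the 2 highest stress values, 2.37 and 2.44, belonged to stress rats 6 and 5. The difference against control rats was 0.26 ± 0.05, or 1.20-fold (adjusted p = 0.00204). A second Syn1 probe also passed, at 0.43 ± 0.07 (adjusted p = 0.000682). Of the SV2 genes, Sv2a, the binding site of the antiepileptic levetiracetam, had 3.13, 3.20 and 3.34 in rats with stress and exercise, 2.82, 2.98 and 3.22 in stress rats, and 2.83, 2.93 and 3.03 in control rats. Here too the rats with stress and exercise lay wholly above control rats, with a difference of 0.29 ± 0.06 or 1.22-fold (adjusted p = 0.00403). Sv2b (-0.08, adjusted p = 0.669) and Sv2c (0.07, adjusted p = 0.423) did not pass.

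**Figure D2:**
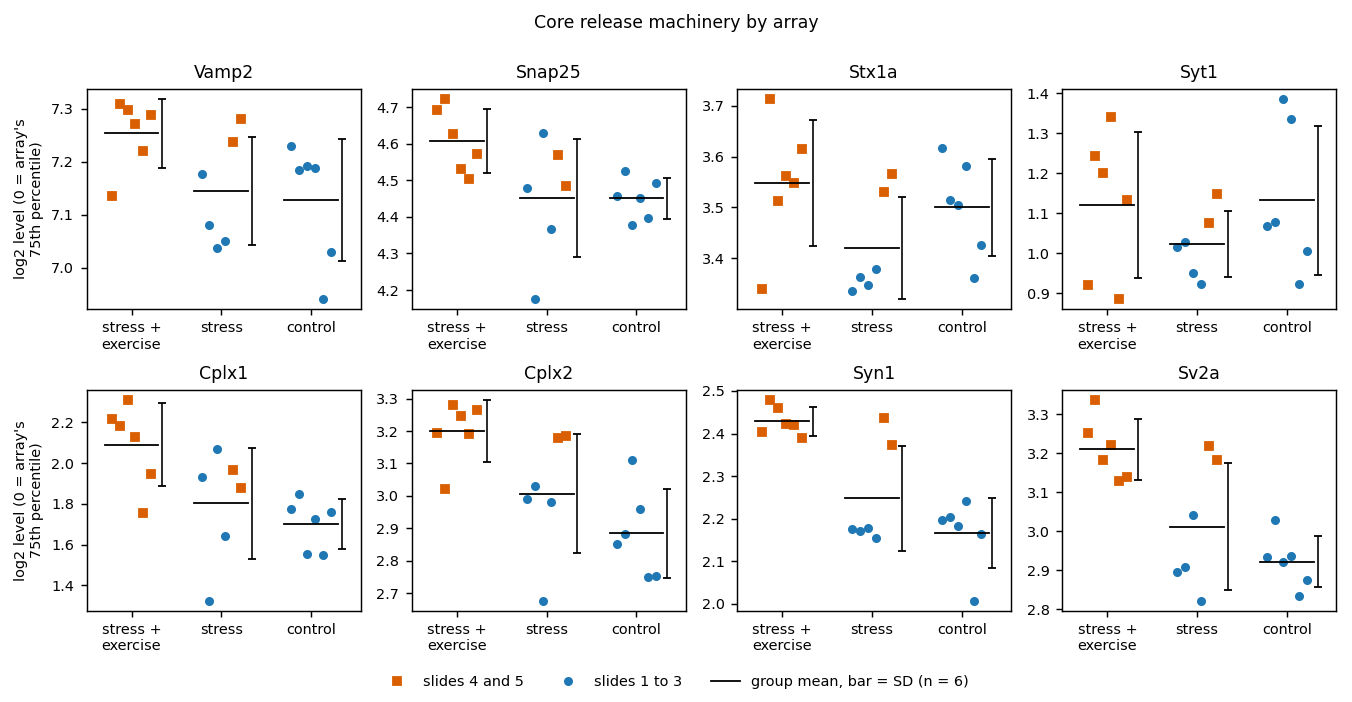
Log2 levels of 8 core genes of vesicle release by array, for rats with stress and exercise, stress rats and control rats (points, 1 rat each; line and bar, mean and SD of 6 rats; colour and shape, slide set). In Vamp2, Stx1a, Syt1, Cplx2, Syn1 and Sv2a the 2 stress rats on slide 4 lie above the 4 stress rats on slide 3, and Syn1 and Sv2a separate the rats with stress and exercise from control rats.

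Among the 15 tested synaptotagmins, 3 were higher, 2 were lower and 10 did not pass. Syt3, a calcium-binding synaptotagmin, had levels of -0.62, -0.47 and -0.35 in rats with stress and exercise, -0.83, -0.70 and -0.54 in stress rats, and -0.98, -0.77 and -0.65 in control rats. The arrays of stress with exercise lay above all control arrays, by 0.30 ± 0.06 on average or 1.23-fold (adjusted p = 0.00256). Syt5, also a calcium-binding member, had 4.46, 4.49 and 4.57 in rats with stress and exercise, 4.28, 4.41 and 4.53 in stress rats, and 4.26, 4.31 and 4.45 in control rats. These rats and control rats did not overlap either, and differed by 0.17 ± 0.04 (adjusted p = 0.00939). Syt12, which lacks calcium-binding residues, had -0.71, -0.54 and -0.41 in rats with stress and exercise, -1.06, -0.86 and -0.62 in stress rats, and -1.04, -0.84 and -0.70 in control rats. The ranges of rats with stress and exercise and control rats overlapped at their edges, and the difference was 0.30 ± 0.08 (adjusted p = 0.0103). Syt8 was lower by a log2 difference of -0.63 ± 0.20 (adjusted p = 0.0232) with overlapping groups, and the call was lost without control rat 2 and without rat 1 of stress with exercise. Syt16 was lower by a small amount, -0.12 ± 0.04 (adjusted p = 0.0323), with levels of 0.63 to 0.74 in rats with stress and exercise, 0.71 to 0.88 in stress rats and 0.76 to 0.86 in control rats. Its call was lost in 6 of 18 cases with 1 rat left out (control rats 1, 3 and 4 and rats 2, 3 and 6 of stress with exercise), and also with median centring, no scaling, no filter on dim probes, and scan day or replicate as a block. On their brightest probes the 10 others ran from -0.14 (Syt9) to 0.23 (Syt6). Among them were Syt7, a slow calcium sensor of asynchronous release, and Syt2, a fast sensor. A second Syt2 probe passed, at 0.38 ± 0.12 (adjusted p = 0.0237), beside 0.16 ± 0.07 (adjusted p = 0.106) on the brightest. With the mean of its probes, median centring and the 2 groups alone, Syt2 passed. It also passed without rat 2 of stress with exercise and without stress rats 5 and 6.

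Of 13 syntaxins, 3 were higher, 2 were lower, Stx4 passed with probes that disagreed in direction, and 7 did not pass. Stx5 of the Golgi had levels of -0.48, -0.37 and -0.31 in rats with stress and exercise, -0.59, -0.55 and -0.34 in stress rats, and -0.74, -0.54 and -0.45 in control rats. The groups overlapped at 1 edge, and the difference against control rats was 0.18 ± 0.05 (adjusted p = 0.0177). The endosomal syntaxins Stx8 (0.18, adjusted p = 0.0465) and Stx12 (0.13, adjusted p = 0.0418) passed narrowly. Leaving out 1 rat at a time, the call was lost for Stx8 in 12 of 18 cases and for Stx12 in 9 of 18, and for both without control rat 5, control rat 6 or any of rats 1, 3, 4, 5 and 6 of stress with exercise. Their second tested probes did not pass (Stx8 0.09, adjusted p = 0.167; Stx12 0.02, adjusted p = 0.803). Stx19, a syntaxin with no transmembrane anchor, had -2.40, -2.17 and -2.10 in rats with stress and exercise, -2.31, -1.98 and -1.86 in stress rats, and -1.89, -1.74 and -1.55 in control rats. All rats with stress and exercise lay below all control rats, and the 2 lowest stress values, -2.31 and -2.29, were those of stress rats 5 and 6. The difference against control rats was -0.50 ± 0.09, or 0.708-fold (adjusted p = 0.00101). Stx18 of the endoplasmic reticulum was lower by 0.22 on the log2 scale (adjusted p = 0.0205). Of those that did not pass, Stx1a, Stx2, Stx3, Stx6, Stx7 and Stx17 ran from 0.02 (Stx7) to 0.08 (Stx2).

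Stx4, a plasma membrane syntaxin known from the insulin-stimulated insertion of glucose transporters in muscle and fat, had the largest difference of any member, and its 3 probes disagreed. On its brightest probe (A_44_P1101505), levels were 4.49, 4.66 and 4.76 in rats with stress and exercise, 4.45, 5.54 and 5.72 in stress rats, and 5.62, 5.72 and 5.84 in control rats. Stress rats 5 and 6 stood at 4.77 and 4.45, with the rats with stress and exercise, whereas stress rats 1 to 4 stood at 5.36 to 5.72. The difference between rats with stress and exercise and control rats was -1.07 ± 0.18, or 0.475-fold (adjusted p = 0.000779). A second probe (A_44_P420131) was higher in rats with stress and exercise, with a mean of 1.17 ± 0.06 against 0.98 ± 0.08 in control rats (SD, n = 6 each) and a difference of 0.19 ± 0.06 (adjusted p = 0.0231). The third (A_44_P1101510) was lower, with a mean of -2.04 ± 0.20 in rats with stress and exercise against -1.70 ± 0.12 in control rats (difference -0.35 ± 0.11, adjusted p = 0.0254). No direction is therefore given for the gene as a whole. Among the 16 members with several tested probes, 6 had probes that differed in sign in this comparison, and Stx4 was the 1 with calls in both directions.

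**Figure D3:**
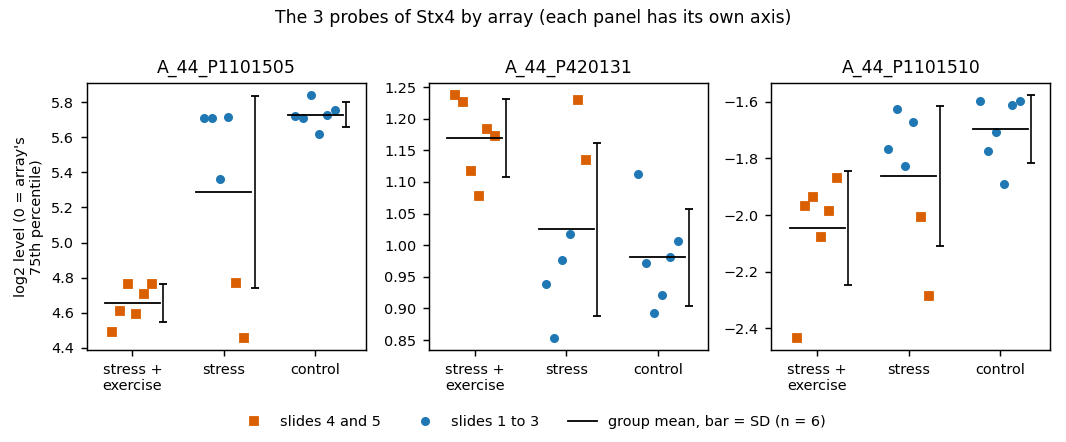
Log2 levels of the 3 Stx4 probes by array, each on its own axis, for rats with stress and exercise, stress rats and control rats (points, 1 rat each; line and bar, mean and SD of 6 rats; colour and shape, slide set). On all 3 probes the 2 stress rats of slide 4 lie apart from the 4 of slide 3, on the side of the rats with stress and exercise.

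Of the 5 Snap genes, Snap29, which acts on endosomes and autophagosomes, was higher. Its levels were 1.74, 1.90 and 1.99 in rats with stress and exercise, 1.62, 1.75 and 1.86 in stress rats, and 1.68, 1.72 and 1.83 in control rats. The lowest array of stress with exercise lay among the control arrays, and the difference was 0.16 ± 0.05 (adjusted p = 0.0219). The call was lost without rat 3 of stress with exercise (adjusted p = 0.0515) and without rat 5 of it (adjusted p = 0.051). On their brightest probes Snap23, the counterpart of Snap25 outside neurons (-0.00), Snap47 (0.15) and Snap91 (-0.03) did not pass. For Snap47 every array of stress with exercise still lay above the highest control array. A second Snap91 probe passed as higher, at 0.19 (adjusted p = 0.0363), with a slide-set difference within stress of 0.28. On their brightest probes none of the 7 Vamp genes passed, with differences from -0.04 (Vamp4) to 0.18 (Vamp5). The smallest p among them was that of Vamp3, cellubrevin, with 4.12, 4.21 and 4.26 in rats with stress and exercise, 4.05, 4.15 and 4.26 in stress rats, and 4.06, 4.09 and 4.18 in control rats. It differed by 0.10 ± 0.04 (adjusted p = 0.0596). Leaving out 1 rat at a time, the adjusted p fell under 0.05 in 4 cases (0.0386 to 0.0475). These were control rat 5, stress rats 2 and 3, and rat 2 of stress with exercise. Vamp3 also passed with normexp (0.0273), median centring (0.0209) and the 2 groups alone (0.0389), and had an adjusted p of 0.861 with the slide set.

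The 250 bases before the transcription start are shown for 4 members with calls, 1 from each of the synapsin, SV2, complexin and syntaxin subfamilies, chosen after their values were seen. They are taken from RefSeq on build GRCr8, and 43 member symbols of the 55 matched an entry. Capitals mark the GC box GGGCGG and the cAMP response element TGACGTCA on either strand. Syn1 lies at chrX:3725495-3725744, plus strand, with 69.6% G and C.
Syn1: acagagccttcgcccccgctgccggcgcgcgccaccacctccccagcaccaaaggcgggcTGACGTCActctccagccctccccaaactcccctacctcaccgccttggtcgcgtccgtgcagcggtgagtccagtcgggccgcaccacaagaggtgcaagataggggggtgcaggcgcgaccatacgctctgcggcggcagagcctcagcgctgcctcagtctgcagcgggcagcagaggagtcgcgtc
Sv2a lies at chr2:186430113-186430362, plus strand, and holds neither motif.
Sv2a: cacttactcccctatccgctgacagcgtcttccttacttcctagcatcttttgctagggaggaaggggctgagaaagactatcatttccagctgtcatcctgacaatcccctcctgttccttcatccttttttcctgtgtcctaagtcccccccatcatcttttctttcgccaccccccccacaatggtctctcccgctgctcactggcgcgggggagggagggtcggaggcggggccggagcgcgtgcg
Cplx1 lies at chr14:1328823-1329072, plus strand, and holds 2 GC boxes.
Cplx1: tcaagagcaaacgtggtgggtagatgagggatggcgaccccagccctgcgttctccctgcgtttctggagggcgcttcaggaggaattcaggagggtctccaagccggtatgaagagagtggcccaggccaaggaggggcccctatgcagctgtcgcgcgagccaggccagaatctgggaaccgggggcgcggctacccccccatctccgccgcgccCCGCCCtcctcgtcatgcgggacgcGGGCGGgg
Stx4 lies at chr1:191881817-191882066, plus strand, and holds 1 GC box.
Stx4: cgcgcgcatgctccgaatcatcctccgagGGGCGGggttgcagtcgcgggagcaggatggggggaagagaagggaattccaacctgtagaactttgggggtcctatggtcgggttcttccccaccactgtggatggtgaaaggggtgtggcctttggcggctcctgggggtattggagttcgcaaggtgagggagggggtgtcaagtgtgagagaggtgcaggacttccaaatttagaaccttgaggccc
Some genes have more than 1 window. A GC box stood in at least 1 window of 28 of the 43 matched members (65.1%), beside 54.4% of the 10661 tested genes with a window. These 28 include Stx11, Stx16, Syt14, Syt15 and Vamp9, which were not tested, so the shares are of unlike sets. The cAMP response element stood in 2 of the matched members, Syn1 and Vamp1 (4.65%), beside 2.83% of the tested genes with a window. Over all 33469 windows of the table, tested or not, the shares were 30.5% and 1.59%. Of 14 called members with a window, 6 held a GC box and 1 the cAMP response element. Neither motif stood in the windows of all called members.

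Within the stress group, stress rats 5 and 6 (slide 4) were set against stress rats 1 to 4 (slide 3), which had the same treatment. In limma 8 of the 48 members passed, against 16.5% of all genes (9.66% higher and 6.79% lower). Of the 8 members, 6 were higher on slide 4, among them Syn1 (0.23), Sv2a (0.28), Syt16 (0.14), Stx8 (0.29) and Snap47 (0.29), and 2 were lower, Stx4 (-1.01, adjusted p = 5.01e-06) and Stx19 (-0.38). The count was 3 without stress rat 5, beside 7.70% of all genes, and 2 without stress rat 6, beside 7.77%. Of these 8 members, 6, Syn1, Sv2a, Stx4, Stx8, Stx19 and Syt16, had also passed between rats with stress and exercise and control rats.

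The 2 contrasts share no array, and 15 of the 16 called members had the same sign in both. Over the 48 members the differences correlated with a Pearson r of 0.802 and a Spearman rho of 0.531, as a description across genes that share arrays and scaling. Of the 48, 36 had the same sign. Over all 13055 genes the values were 0.556 and 0.545, with 73.6% of the same sign. Stx4 lay farthest out of the members in both contrasts (-1.07 and -1.01). The Pearson r without Stx4 was not computed, and by rank the members stood near all genes. Over all 48 tested members, the mean of the slide 4 stress rats was nearer to the rats with stress and exercise than to control rats in 33, and the mean of the slide 3 stress rats was nearer to control rats in 34. Both slide 4 stress rats lay within the range of rats with stress and exercise in 26 of the 48. The called members were chosen by the difference from control rats. For 13 of these 16 the mean of the slide 4 stress rats was nearer to the rats with stress and exercise, and for 15 the mean of the slide 3 stress rats was nearer to control rats. Both slide 4 stress rats lay within the range of rats with stress and exercise in 9 of the 16, which were Cplx1, Cplx2, Snap29, Stx12, Stx18, Stx19, Stx8, Sv2a and Syt5. These counts of nearness and range were not made over all genes, so they show nothing particular to the members. On the first principal component of the tested probes the stress rats also divided by slide set.

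**Figure D4:**
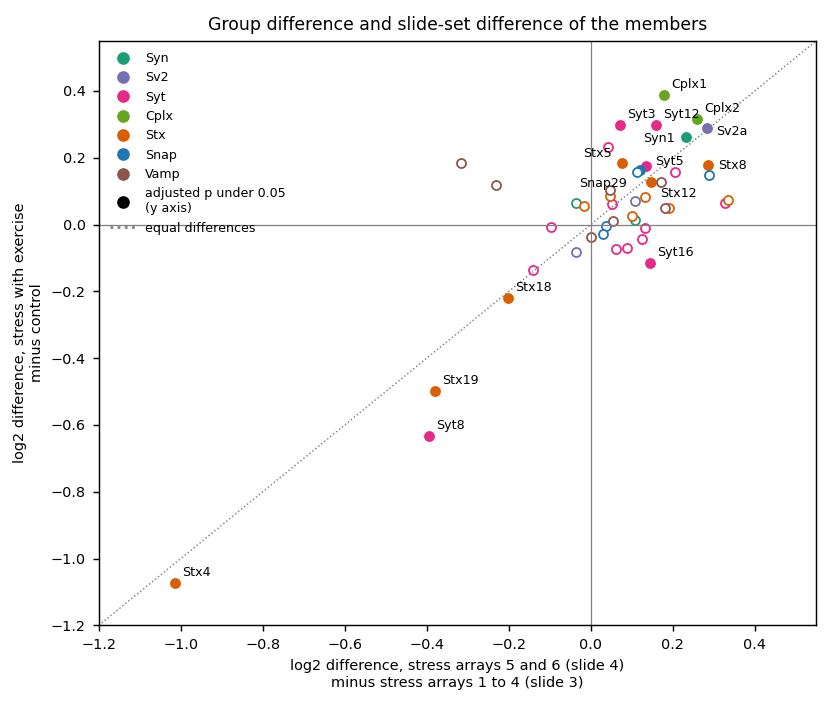
Log2 difference between rats with stress and exercise and control rats (vertical) against the log2 difference between stress rats on slide 4 and on slide 3 (horizontal) for 47 of the 48 tested members, with named points past the threshold on the vertical axis. Most named points lie near the dotted line of equal differences, with Stx4 at the lower left, Syt3 and Cplx1 above it, and Syt16 on opposite sides of zero on the 2 axes.

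Once the slide set entered the fit as a covariate, 0 of the 48 members passed in any of the 3 comparisons, beside 0.00766% of all genes between rats with stress and exercise and control rats. At an unadjusted p under 0.05 in limma stood 3 members in that comparison, 1 between rats with stress and exercise and stress rats, and 4 between stress and control rats. Of the 31299 tested probes, 2890, 2009 and 2903 stood there, in the same order of comparisons. In this fit the difference is that between rats with stress and exercise and control rats less that between the slide sets within stress. The lowest adjusted p was 0.205, for Syt16. In 15 of the 16 called members the difference shrank, and Stx8 (-0.11) and Stx12 (-0.02) turned sign. Sv2a was left with 0.00 ± 0.08, Syn1 with 0.03 ± 0.06, Cplx2 with 0.06 ± 0.13 and Stx4 with -0.06 ± 0.13. Larger estimates with wide errors were those of Cplx1 (0.21 ± 0.21, adjusted p = 0.832), Syt3 (0.23 ± 0.11, adjusted p = 0.571), Syt12 (0.14 ± 0.14, adjusted p = 0.828) and Syt8 (-0.24 ± 0.34, adjusted p = 0.891). Syt16 was the exception that grew, to -0.26 ± 0.05: its slide 4 stress rats stood at 0.86 and 0.88, above every rat with stress and exercise and every stress rat on slide 3. The group and the slide set cannot be told apart in the comparison with control rats.

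**Figure D5:**
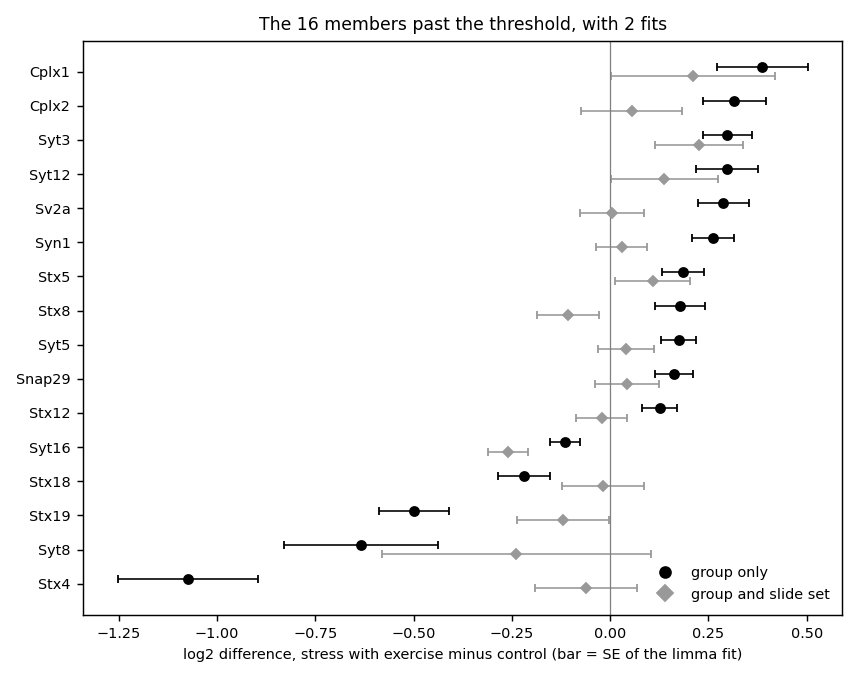
Log2 difference between rats with stress and exercise and control rats for the 16 called members (points and diamonds, estimates; bars, SE of the limma fit), once with group as the only term (black) and once with the slide set added (grey). The grey diamonds lie closer to 0 than the black points for all members but Syt16, which moves to -0.26.

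Rats with stress and exercise differed from stress rats in the wheel, as both groups were restrained, and also in slide set for 4 of the 6 stress rats. None of the 48 members passed in limma, where 3.28% of all genes did (1.60% higher and 1.68% lower), and 14 had an unadjusted p under 0.05, beside 25.2% of all genes. The member differences were positive in 36 of 48, and no member had groups without overlap (1.76% of all genes). The lowest adjusted p were those of Syt12 (0.29 ± 0.08, adjusted p = 0.0516), Stx4 (-0.63 ± 0.18, adjusted p = 0.056) and Syn1 (0.18 ± 0.05, adjusted p = 0.0601). Among the other core members, Sv2a differed by 0.20 (adjusted p = 0.0804), Cplx1 by 0.29 (0.142), Cplx2 by 0.19 (0.157), Snap25 by 0.16 (0.146), Stx1a by 0.13 (0.221), Vamp2 by 0.11 (0.25) and Syt1 by 0.10 (0.526). Snap29 differed by 0.16 (adjusted p = 0.0735).

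The count depended on which stress rats entered. It was 15 without stress rats 5 and 6, beside 26.5% of all genes. It was 8 without stress rat 5 alone, beside 14.5% of all genes, and 7 without stress rat 6 alone, beside 13.5%. Fitting scan day as a block gave 5, beside 9.21% of all genes. On slides 4 and 5, where stress rats 5 and 6 are the only stress rats, none passed. There 1 member had an unadjusted p under 0.05 in limma, beside 1986 of the 31299 tested probes. Syn1 differed by 0.03, Sv2a by 0.01 and Stx4 by 0.04. On scan day 1 alone, which holds slides 2 and 4, none passed. On that day 6 members had an unadjusted p under 0.05 in limma, beside 3656 of the 31299 tested probes. On scan day 2, on which all rats with stress and exercise lay on slide 5 and all stress rats on slide 3, 15 passed, beside 24.4% of all genes, among them Syn1 (0.25), Sv2a (0.25), Cplx2 (0.33), Stx1a (0.20), Vamp2 (0.18) and Stx4 (-0.92). The sign of Cplx2 (-0.07), Stx1a (-0.02), Syt1 (-0.03) and Vamp2 (-0.04) was opposite on slide 4 alone, where 2 rats of each group were measured.

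Stress rats differed from control rats in the restraint, and for stress rats 5 and 6 also in slide set. No member passed in limma and no gene did (0% of 13055), with 5 members at an unadjusted p under 0.05 beside 12.2% of all genes, and 24 of the 48 differences were positive. The smallest p was that of Stx19, with a difference of -0.32 ± 0.09 (adjusted p = 0.266), followed by -0.44 ± 0.18 for Stx4 (adjusted p = 0.372). By subfamily, the smallest p belonged to Syn1 (0.08, adjusted p = 0.538), Sv2b (-0.19, 0.554), Syt8 (-0.42, 0.409), Cplx2 (0.12, 0.552), Snap91 (-0.08, 0.546) and Vamp3 (0.06, 0.534). Sv2b had levels of -0.90, -0.50 and -0.12 in stress rats and -0.63, -0.32 and 0.05 in control rats. Syt8 had -4.49, -3.59 and -3.43 in stress rats and -3.72, -3.33 and -2.71 in control rats, and Snap91 had 0.67, 0.82 and 0.94 in stress rats and 0.80, 0.89 and 1.00 in control rats. Both groups overlapped in every member, where 1.03% of all genes did not overlap. With scan day as a block 1 member passed, Stx19 (-0.41), beside 1.06% of all genes. The core genes Snap25 (-0.00), Vamp2 (0.02), Stx1a (-0.08), Syt1 (-0.11), Cplx1 (0.10) and Sv2a (0.09) had adjusted p-values of 0.588 or above. Within slides 1 to 3 none passed, with 4 members at an unadjusted p under 0.05 in limma, beside 2621 of the 31299 tested probes. On scan day 1, where only stress rats 5 and 6 stood for stress, 4 passed, among them Sv2a, Stx4 and Stx19, beside 10.6% of all genes.

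The genes that act with this machinery were described from 5 lists. In the comparison of rats with stress and exercise with control rats, 8 of 35 tested priming and docking partners passed, 6 higher and 2 lower. Stxbp3, a Munc18 protein that binds plasma membrane syntaxins, was higher by 0.20 (adjusted p = 0.00331), and so was Rph3a, an effector of Rab3, by 0.23 (adjusted p = 0.00568). The slide-set difference within stress was 0.04 for Stxbp3 and 0.10 for Rph3a. Rims3, a short RIM protein of the active zone, was lower by a log2 difference of -0.48 (adjusted p = 0.00134), and its slide-set difference within stress was -0.50. Of 24 other synaptic vesicle proteins 5 passed, 4 higher and 1 lower. Rab3b, a vesicle GTPase, differed by 0.27 and Atp6v0a1, a subunit of the vesicular proton pump, by 0.29. Their slide-set differences within stress were 0.07 and 0.38. Scamp5, a secretory carrier membrane protein, differed by -1.15 (adjusted p = 0.00178) with a slide-set difference within stress of -1.33. These counts stand beside 28.0% of all genes.

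Of 24 tested genes of vesicle endocytosis, the step that retrieves vesicle membrane, 12 passed against control rats, 10 higher and 2 lower. Among all genes 28.0% passed in that comparison, 18.1% higher and 9.84% lower. Amph, amphiphysin, had a mean of 1.21 ± 0.06 in rats with stress and exercise, 0.98 ± 0.14 in stress rats and 0.87 ± 0.06 in control rats (SD, n = 6 each). It was higher against control rats (0.34, adjusted p = 0.000807) and against stress rats (0.23, adjusted p = 0.0406). Dnm3, a dynamin, was higher against stress rats too (0.25, adjusted p = 0.0461). Their slide-set differences within stress were 0.24 for Amph and 0.32 for Dnm3. The coat adaptors Ston2 (0.36) and Fcho2 (0.32) were higher against control rats, with slide-set differences within stress of 0.23 and 0.12. The list's median log2 difference against control rats was 0.113, beside 0.051 for all genes, and it was -0.012 with the slide set as a covariate.

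Of 12 dense core vesicle genes, which serve peptide release, 1 passed against control rats: Scg3, a granin, was lower by a log2 difference of -0.31 (adjusted p = 0.000733), with a slide-set difference within stress of -0.16. Of 10 other SNARE genes, which act mainly between endoplasmic reticulum and Golgi, 4 were higher and 1 lower, among them Use1 (0.18), Gosr2 (0.37) and Bet1 (-0.17). The slide-set differences within stress were 0.06 for Use1, 0.35 for Gosr2 and -0.14 for Bet1. The counts of both lists stand beside 28.0% of all genes. Bet1 also passed against stress rats, at -0.16 (adjusted p = 0.0465). Against control rats, stress rats showed no call in any of the 5 lists. After adding the slide set as a covariate, the 5 lists held no call in any comparison.

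Some markers of cell types passed between rats with stress and exercise and control rats, where 18.1% of all genes were higher and 9.84% lower. Against control rats, rats with stress and exercise had 3 of 10 neuronal markers higher (Nefl 0.39, Rbfox3 0.17, Uchl1 0.13), and the summed neuronal level ran from 370 to 395 in rats with stress and exercise, from 338 to 393 in stress rats and from 343 to 387 in control rats. Within stress it ran from 382 to 393 on slide 4 against 338 to 356 on slide 3. Of 8 striatal markers 5 were higher, with sums of 21.8 to 29.5, against 20.6 to 24.7 in stress rats and 20.0 to 21.1 in control rats. All 5 cholinergic markers were higher. Their sums were 2.52 to 5.83, against 2.72 to 4.65 in stress rats and 2.25 to 3.04 in control rats. Oligodendrocyte markers had 3 of 8 higher, their precursors 4 of 8 higher and 1 lower, microglia 1 of 8 higher and 2 lower, astrocytes 1 of 8 in each direction, and endothelium and choroid plexus none. Hypothalamic neuron markers had 1 of 11 in each direction (Npy 0.34, Trh -0.30). Thalamic markers had 1 of 5 tested higher. Those of cortex and hippocampus had 1 of 5 lower (Prox1 -0.29), with sums of 31.4 to 37.6 in rats with stress and exercise, 33.0 to 47.9 in stress rats and 41.0 to 44.9 in control rats. Within stress these sums were 33.0 to 33.8 on slide 4 against 42.3 to 47.9 on slide 3. A sum of intensities follows its brightest genes, and the markers of this list did not move together. Against control rats 3 of the 5 differences were positive (median 0.019). In the slide-set contrast 3 of the 5 were positive too (median 0.076), with Prox1 lower (-0.43) and Neurod2 higher (0.45, adjusted p = 0.0356) on slide 4. Those of the pituitary had 1 of 4 lower (Pou1f1 -0.90), while Gh1, Prl and Tshb had no tested probe, and the sums were 0.511 to 15.6 in rats with stress and exercise, 0.495 to 45.2 in stress rats and 0.579 to 26.6 in control rats. Within stress they were 0.495 to 0.526 on slide 4 against 20.2 to 45.2 on slide 3. Neuronal and glial markers also passed in the slide-set contrast. Higher on slide 4 were Tubb3 (0.29), Rbfox3 (0.20), Uchl1 (0.18), Mag (0.29), Sox10 (0.27), Cspg4 (0.24), Olig1 (0.21) and Aif1 (0.17). Lower there were Enpp6 (-0.86), Cx3cr1 (-0.77), Itgam (-0.34) and Aqp4 (-0.23). In the same contrast the pituitary markers Cga (-11.00, adjusted p = 0.0153) and Lhb (-0.43, adjusted p = 0.00911) and the choroid plexus marker Kcnj13 (-3.63, adjusted p = 0.0151) were lower on slide 4. From the slide 3 sums, a fall of the size seen for Cga ends near the background limit. The lowest levels well above background were -5.37 in stress rat 5 and -5.76 in stress rat 6. The size of the Cga difference is therefore not a measured fold change. The part of these cell types in the members' differences was not tested.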

How the data were processed

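Scanner files of 18 arrays, 1 per rat, were analysed. The deposited intensity is the processed signal of Agilent Feature Extraction, with background and spatial trend already removed, per the file headers, which name version 12.1.0.3; the submitters' processing notes name 9.1. The authors' series matrix holds the same deposited intensity times 1 constant per array. Control spots and 297 to 580 outlier spots per array were left out, and spots of a probe were averaged; 197 levels of 185 tested probes were thereby missing, and their probes were fitted on the other arrays. Levels are log2 of the intensity minus the array's 75th percentile over 45598 probes. A probe was tested if well above background on at least 5 of 6 arrays of a group (31299 probes), and a gene takes its brightest tested probe. Symbols come from transcript accessions in a RefSeq table of GRCr8 (21220 probes matched 1 symbol, 24378 none). No positions are given for probes, since the array was designed on rn4.

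Groups were compared with limma 3.58.1 (lmFit and eBayes, R 4.3.3) fitted to the 18 arrays together, with no term but group, two-sided, with Benjamini-Hochberg adjustment over all tested probes. The same fit was run on simulated arrays with a known difference added to some probes. Their noise was independent and held no slide effect, so they cannot show how the fit behaves under the slide-set difference. SE is that of the moderated fit. The slide-set contrast uses 4 cells of group by slide set. The number of arrays limits the precision. The normexp alternative used the median and background median signals with an offset of 50, since the mean signal named in advance is not used here.

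Members and lists were chosen with earlier results of these data known. Values are given for Syt1, Snap25, Stx1a, Vamp2, Cplx1, Cplx2, Syn1 and Sv2a in every comparison. They are also given, per subfamily and comparison, for the 3 passing members with the smallest p or, where none passed, the 1 with the smallest p. Of each partner list up to 3 passing genes are named. Other members are given by name, count and range. The values of 1 tested member, which stays in all counts, are not reported here. Syt16, and the members named with the slide-set contrast, were singled out after their values were seen. The alternatives were other background, scaling, filter, probe and block choices, single batches, and each rat left out in turn.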

Additional observations from a re-analysis of the deposited data

Results flagged for a closer look

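Of 144 sets of 6 arrays (48 members in 3 groups), 6 held a rat that stood far from the other 5 of its group by Dixon's test, and chance flags about 1 in 20 groups. The Cplx2 level of rat 2 of stress with exercise was 3.02, below the others of its group at 3.19 to 3.28. The same rat had a Vamp7 level of 2.46, above the others at 2.08 to 2.18. Syt8 stood at -4.49 in stress rat 6, against -3.80 to -3.43 in the other stress rats. Among control rats, Snap23 stood at 0.06 in rat 4, against 0.23 to 0.30, Syn1 at 2.01 in rat 5, against 2.16 to 2.24, and Vamp4 at 3.57 in rat 6, against 3.69 to 3.73. The cause was not tested.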

How the results depend on the processing

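Counts of members past the threshold in rats with stress and exercise against control rats (16) stayed within 1.5 times under normexp, quantile normalization, median centring, the series matrix, both filters, the mean of a gene's probes, the scan day block and every left-out rat (12 to 18). They were 6 without scaling (2 higher, 4 lower), 0 with the slide set, 2 with slide as a random block (Stx4 and Stx19), and 9 and 7 within scan days 1 and 2. Median centring moved the median of all probes to 0.114, beside 0.0232. Probes numbered 8506 (7389 to 8883 with a rat left out), 5171 without scaling, 4 with the slide set and 1654 with slide as a random block. Within scan days 1 and 2 they numbered 5940 and 5897.

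Against stress rats the member count of 0 (0 to 8 with a rat left out) was 5 with normexp, 1 with quantile normalization, 1 without scaling, 2 with the filter on all arrays, 5 with the scan day block, 15 within scan day 2 and 15 without stress rats 5 and 6. Probes numbered 1170 (1 to 4630 with a rat left out), 226 with median centring, 3 with no filter, 5 with the slide set, 0 with slide as a random block (3433 at an unadjusted p under 0.05), 3113 with the scan day block, 2 with the replicate block, 0 in the 2 groups alone (6598), 3 within slides 4 and 5, 0 within slide 4 (3303), 0 within scan day 1 (3656), 7777 within scan day 2 and 8201 without stress rats 5 and 6.

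In stress rats against control rats, 0 members passed with any rat left out, 1 with the scan day block and 4 within scan day 1. Probes numbered 0 (0 to 1 with a rat left out), 2 with quantile normalization, 1 with median centring, 1 with the slide set, 370 with the scan day block, 3925 within scan day 1 and 2 without stress rats 5 and 6. Slide-set calls within stress (8) were 3 without scaling, 5 with the replicate block, and 2 to 8 with a rat left out.

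Single members turned sign as follows. Against stress rats, Cplx2 was -0.07, Stx1a -0.02, Syt1 -0.03 and Vamp2 -0.04 within slide 4 and within scan day 1; with the slide set and within slides 4 and 5, Stx4 was 0.04 and Vamp2 -0.00. In stress against control rats, Snap25 was 0.00 with normexp and without scaling, 0.01 with quantile normalization, 0.06 with median centring, 0.02 with the scan day block and 0.10 within scan day 1, and Stx1a was 0.08 within scan day 1. With the slide set, within slides 1 to 3 and without stress rats 5 and 6, Sv2a was -0.00 and Vamp2 -0.04. Within scan day 2 Cplx1 was -0.07, Sv2a -0.07, Syn1 -0.03 and Vamp2 -0.12. In rats with stress and exercise against control rats, Stx1a was -0.01 without scaling and within scan day 2; with the slide set Stx1a was -0.14 and Vamp2 -0.05; Syt1 was 0.08 with median centring, 0.09 with the mean of its probes, 0.01 with the scan day block and 0.07 within scan day 2. With a rat left out, Snap25 ran from -0.04 to 0.05 and Vamp2 from -0.02 to 0.04 in stress against control rats, and Syt1 from -0.06 to 0.04 in rats with stress and exercise against control rats. The cause of these moves was not tested.

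Replicate numbers did not pair the rats: same-numbered arrays correlated from -0.245 to 0.187, and 0 of 18 arrays correlated best with its own number. With the replicate block, 12 members passed between rats with stress and exercise and control rats (7319 probes), 0 between rats with stress and exercise and stress rats, and 0 between stress and control rats. Stx5 then had an adjusted p of 0.0501.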
